A study of Homo sapiens with 6 samples.

Results

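LAPTM4B, LAPTM4A and LAPTM5 make up the human family of lysosome-associated transmembrane proteins, and all 3 were among the 61806 genes of the deposited table, chosen by their gene symbols. RNA sequencing compared cells in which LAPTM4B was knocked down, titled shLAP and given the genotype LAPTM4B knockdown, with control cells, titled NC and given the genotype WT, at 3 libraries each. Both groups are labelled as HepG2, a widely used cell line grown from a human liver tumour, and as CD133+, that is, selected for the surface protein encoded by PROM1. The labels give neither the vector and number of hairpins nor what the control cells received, and they do not say whether lines were pools or single clones. The title of the series speaks of a feedback between LAPTM4B and YAP, a co-activator of transcription, and of stemness in liver cancer.

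Proteins of this family span the membrane of late endosomes and lysosomes several times and carry short cytoplasmic motifs that bind ubiquitin ligases and sorting adaptors. LAPTM4B is known for promoting tumour growth, for bringing the leucine transporter to lysosomes and for acting on the sorting of the EGF receptor. LAPTM4A, its closest relative, is expressed in most tissues and is needed for synthesis of the glycosphingolipid Gb3, whereas LAPTM5 is mostly a protein of blood cells that lowers the surface level of antigen receptors.

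Gene counts summed to 15204269 to 16303949 in the knockdown libraries and to 15667396 to 19987318 in the control libraries, and 3 counts came to 0.150 to 0.197 CPM (counts scaled to a common library total) of the raw totals. All other levels in CPM are also scaled with TMM factors. Markers of the labelled line were low or missing. Of 12 hepatocyte and hepatoma markers, ALB, APOA1 and APOB had no count in any library, AFP had 0 to 4 counts in knockdown libraries and 1 to 4 in control libraries, and PROM1 had 6 to 12 counts in knockdown libraries and 1 to 3 in control libraries. Summed over all 12 markers the level was 9.64 to 10.5 CPM in knockdown libraries, against 18.4 to 20.2 CPM in control libraries. Of the 3 tested markers SERPINA1 (4, 0 and 5 counts in knockdown libraries, against 43, 49 and 35 in control libraries) and FGB (5.45 ± 0.106 CPM in knockdown cells and 12.1 ± 0.711 CPM in control cells) were lower (edgeR adjusted p = 4.93e-07 for SERPINA1 and 2.03e-08 for FGB), and HNF4A (3.63 ± 0.317 CPM in knockdown cells and 4.48 ± 0.772 CPM in control cells) did not pass. For comparison, lower calls made up 27.9% of all 16354 tests and higher calls 28.0%. The median log2 change of the 3 tested markers was -1.14, beside 0.0069 over all genes tested. What part the levels of the 12 markers have in the results below was not tested. The labels do not state that replicates are separate cultures, so the p-values speak of the spread among these libraries alone, which could be technical.

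LAPTM4B messenger RNA fell by 30.6% in knockdown cells. The gene (ENSG00000104341) lies on the plus strand of chromosome 8 from 97775057 to 97853013 (hg38). It had 3556, 3661 and 3880 counts in knockdown libraries and 5879, 5018 and 6774 counts in control libraries. Per length and depth these were 72.0, 75.3 and 74.4 FPKM in knockdown libraries, against 100.1, 100.2 and 106.0 FPKM in control libraries. Every knockdown library was below every control library. The means were 73.9 ± 1.71 FPKM in knockdown libraries and 102 ± 3.40 FPKM in control libraries (SD, n = 3 each), and the log2 change of the counts was -0.53 (SE 0.04; edgeR adjusted p = 3.25e-12), a 1.44-fold lower level. In bulk libraries, fewer cells with the usual amount of message and less message in every cell cannot be told apart.

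LAPTM4A, the sorting and glycolipid-synthesis relative, rose in the same cells. The gene (ENSG00000068697) lies on the minus strand of chromosome 2 from 20032650 to 20051628. It had 2247, 2397 and 2436 counts in knockdown libraries and 1840, 1662 and 2179 counts in control libraries. Its level was 94.1, 102 and 96.6 FPKM in knockdown libraries, against 64.8, 68.6 and 70.5 FPKM in control libraries, so the groups did not overlap. The means were 97.6 ± 4.02 FPKM in knockdown libraries and 68.0 ± 2.94 FPKM in control libraries (SD, n = 3 each), and the log2 change was 0.46 (SE 0.04; edgeR adjusted p = 1.83e-09), a 1.38-fold higher level.

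LAPTM5, the blood-cell member, was scarce in both groups and fell to a lower level still. The gene (ENSG00000162511) lies on the minus strand of chromosome 1 from 30732469 to 30757774. It had 10, 11 and 14 counts in knockdown libraries and 56, 44 and 47 counts in control libraries. Its level was 0.20, 0.22 and 0.27 FPKM in knockdown libraries, against 0.94, 0.87 and 0.73 FPKM in control libraries. The groups did not overlap, and all counts stood above the 3 counts taken as the detection limit. The means were 0.23 ± 0.0361 FPKM in knockdown libraries and 0.847 ± 0.107 FPKM in control libraries (SD, n = 3 each), and the log2 change was -1.92 (SE 0.31; edgeR adjusted p = 7.76e-06), a 3.79-fold lower level. With so few counts the SE was far wider than for LAPTM4B and LAPTM4A.

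**Figure D1:**
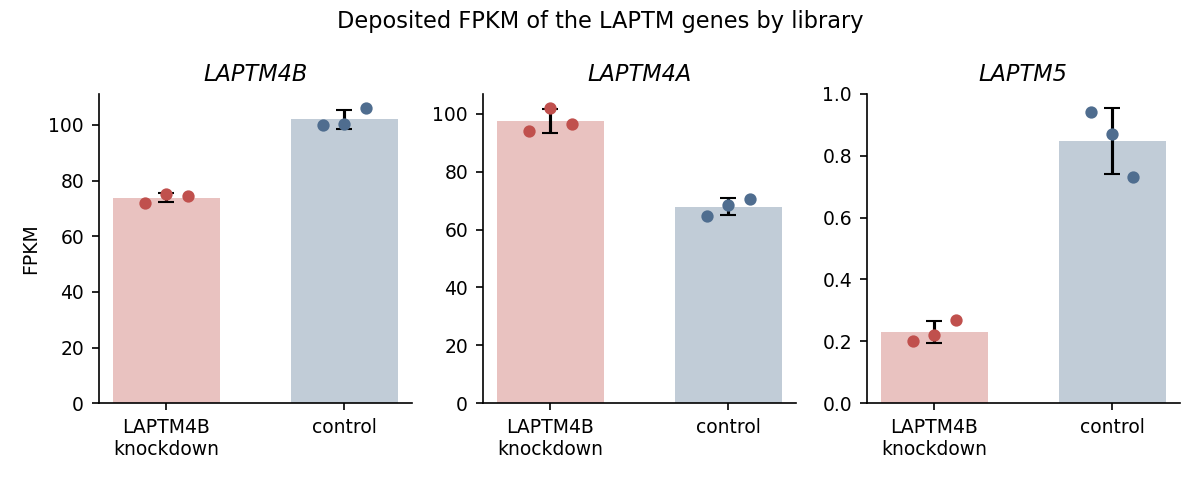
Deposited FPKM of LAPTM4B, LAPTM4A and LAPTM5 (vertical axes, each from 0 and on its own scale) in LAPTM4B knockdown and control libraries; points are single libraries, bars are means and error bars are SD of 3. LAPTM4B sits at 72.0 to 75.3 FPKM in knockdown libraries, below all control libraries, while LAPTM4A sits at 94.1 to 102 FPKM, above all control libraries, and LAPTM5 stays under 1 FPKM in both groups.

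All 3 genes thus passed the test, where 55.9% of the 16354 genes tested did: 28.0% were higher and 27.9% lower in the knockdown (4584 and 4559 genes; 4496 and 2915 with limma on log2(FPKM + 0.1)). Passing was common in this comparison, so the sizes of the changes were set against those of other genes. The fall of LAPTM4B was exceeded by 2769 tested genes, which is 16.9% of those tested. The rise of LAPTM4A was equalled or exceeded by 2397 genes, or 14.7%. The fall of LAPTM5 was exceeded by 375 genes, or 2.29%, and the plot of change against mean CPM shows where each gene lies. Of the genes called in the same direction, 51.9% changed more than LAPTM4B, 42.4% more than LAPTM4A and 8.23% more than LAPTM5. These shares take in genes of every level, so they are not a comparison among genes as scarce as LAPTM5. The biological coefficient of variation was 3.19% for LAPTM4B, 3.51% for LAPTM4A and 14.7% for LAPTM5, beside 3.22%, 3.41% and 16.9% for the trend at their levels. The fit draws the value of each gene towards this trend. Their closeness is thus partly built in and does not show that the replicate scatter of these genes was usual.

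**Figure D2:**
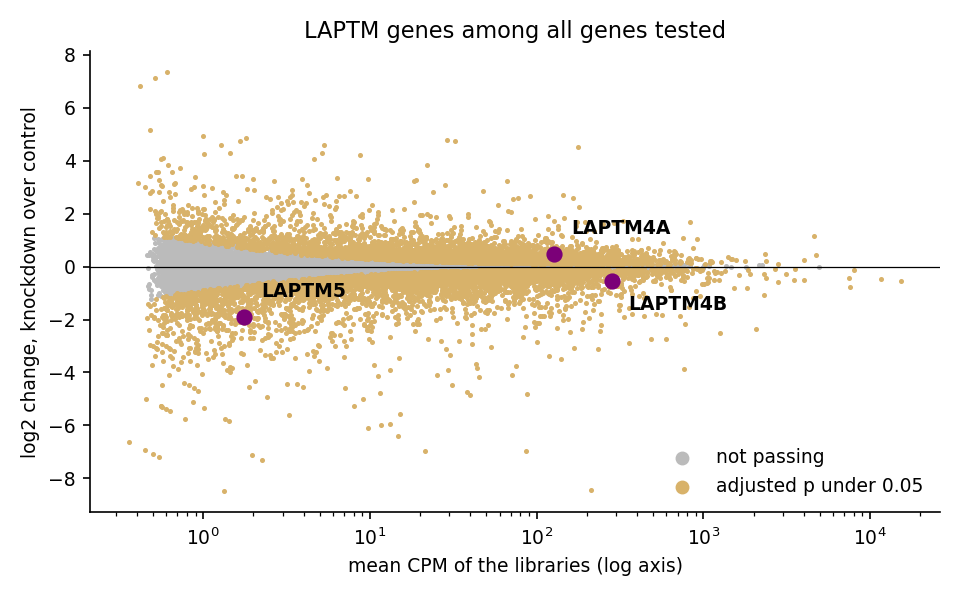
Log2 change, knockdown over control (vertical axis), against mean CPM of the libraries (horizontal axis, log scale) for the 16354 genes tested; tan points have an edgeR adjusted p under 0.05, grey points do not, and the LAPTM genes are purple. LAPTM4B (-0.53) and LAPTM4A (0.46) lie on opposite sides of 0 within the band of well-expressed genes, and LAPTM5 (-1.92) lies lower among scarce ones.

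LAPTM4B and LAPTM4A stood in opposite order in the knockdown and control cells. By FPKM, LAPTM4A stood above LAPTM4B in every knockdown library, whereas LAPTM4B stood above LAPTM4A in every control library, and LAPTM5 was last throughout. Among the genes tested LAPTM4B ranked 418 in knockdown cells and 262 in control cells, and LAPTM4A ranked 273 in knockdown cells and 445 in control cells. LAPTM5 ranked 15292 in knockdown cells and 12916 in control cells. LAPTM4B made up 43.3%, 42.4% and 43.4% of the summed FPKM of the family in knockdown libraries, against 60.4%, 59.0% and 59.8% in control libraries. The ratio of LAPTM4A to LAPTM4B was 1.31, 1.35 and 1.30 in knockdown libraries and 0.647, 0.685 and 0.665 in control libraries. The sum over the family was 166, 178 and 171 FPKM in knockdown libraries and 166, 170 and 177 FPKM in control libraries, so the totals in FPKM overlapped while the shares did not. Without length, in CPM, the sum was 371 to 393 in knockdown libraries and 432 to 465 in control libraries, and these totals did not overlap. No test was made of shares, which follow from the gene values above.

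**Figure D3:**
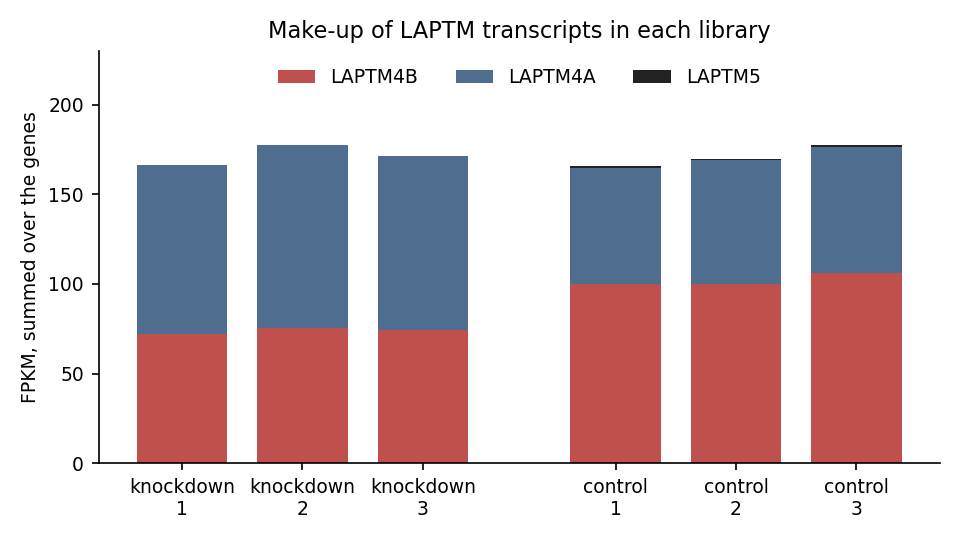
FPKM summed over the LAPTM genes (vertical axis, from 0) in each knockdown and control library, stacked by gene. The bars reach similar heights, 166 to 178 FPKM in knockdown libraries and 166 to 177 FPKM in control libraries, but LAPTM4B takes 42.4% to 43.4% of the knockdown bars and 59.0% to 60.4% of the control bars.

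The difference in order rests on gene length. The deposited lengths were 3197 bases for LAPTM4B, 1546 for LAPTM4A and 3228 for LAPTM5, and without length, in CPM, LAPTM4B exceeded LAPTM4A in both groups (232 ± 5.05 against 148 ± 6.21 CPM in knockdown cells and 334 ± 13.9 against 108 ± 5.15 CPM in control cells). GENCODE release 29 lists 4 protein-coding transcripts of LAPTM4B, from 618 to 3173 bases, and 1 each of LAPTM4A (1765 bases) and LAPTM5 (2223 bases). With the longest of these, an alternative added after seeing the data, LAPTM4A still stood higher in knockdown cells, at 85.5 ± 3.52 against 74.5 ± 1.73 FPKM. With the second longest transcript of LAPTM4B, of 2758 bases, the knockdown libraries no longer separated the genes: LAPTM4A was at 82.4 to 89.3 FPKM and LAPTM4B at 83.5 to 87.3 FPKM. In control cells LAPTM4B stayed higher under both, and its fall and the rise of LAPTM4A do not depend on length.

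Near copies of the LAPTM genes held few counts. The pseudogene LAPTM4BP1 had 0 counts in every knockdown library and 1, 0 and 0 in control libraries, and LAPTM4BP2 had 3, 6 and 3 counts in knockdown libraries and 4, 6 and 9 in control libraries. Of the 3196 different stretches of 50 bases in LAPTM4B transcripts, 139 (4.35%) also occurred in transcripts of another gene, 62 of them in LAPTM4BP2 and none in LAPTM4A or LAPTM5. No such stretch of LAPTM4A or LAPTM5 occurred elsewhere. Genes overlapping LAPTM4B and LAPTM5 on the map held 2 and 0 counts over all libraries, and none overlapped LAPTM4A. The divergent transcript LAPTM4A-DT, which starts beside LAPTM4A on the other strand, had 1, 3 and 0 counts in knockdown libraries and 1, 6 and 0 in control libraries.

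The promoters of the relatives that moved in opposite directions are shown for comparison, since LAPTM4A was high and rose while LAPTM5 was scarce in both groups and fell. RefSeq windows (GRCh38.p14) matched 2 of the 3 genes, LAPTM4A and LAPTM5 but not LAPTM4B, and the 250 bases before the start are printed 5′ to 3′ on the gene's strand. The LAPTM4A window is chr2:20051629-20051878 (minus strand) and the LAPTM5 window is chr1:30757775-30758024 (minus strand). Capitals mark matches, on either strand, to any of 5 motifs: the TEAD core GGAATG, the E-box CACGTG, the CCAAT box, the ETS motif AGGAAGT and the TATA box TATAAA. TEAD proteins are the DNA-binding partners of YAP, which the series title names.
LAPTM4A: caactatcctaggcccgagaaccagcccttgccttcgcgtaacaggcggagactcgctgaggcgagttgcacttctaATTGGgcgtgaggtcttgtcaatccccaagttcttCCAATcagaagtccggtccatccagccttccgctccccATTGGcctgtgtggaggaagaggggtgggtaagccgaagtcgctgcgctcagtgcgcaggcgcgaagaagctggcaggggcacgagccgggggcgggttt
LAPTM5: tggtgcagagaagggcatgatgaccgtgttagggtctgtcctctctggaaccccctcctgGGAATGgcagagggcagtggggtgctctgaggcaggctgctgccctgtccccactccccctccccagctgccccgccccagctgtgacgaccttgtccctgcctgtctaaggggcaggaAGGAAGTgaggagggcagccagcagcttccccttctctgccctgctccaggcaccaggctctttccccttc
LAPTM4A holds CCAAT letters beginning 138 bases before its start on the gene's strand and, as ATTGG, on the other strand at 173 and 100 bases. LAPTM5 holds GGAATG at 190 bases and AGGAAGT at 71 bases before its start, and the marked matches do not overlap. Of 35116 promoters of the same length, 32% hold the CCAAT box, 11.9% GGAATG, 7.01% AGGAAGT, 6.34% CACGTG and 10.7% TATAAA. The LAPTM4A window has 18 CpG and 61.2% G and C, the LAPTM5 window 3 CpG and 64.8%, beside medians of 11 CpG and 58% over all promoters. A match is a run of letters and not a shown binding site.

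For LAPTM5, leukocyte markers were read beside it. Of 20 such genes 3 (MS4A1, LYZ and AIF1) had no count in any library and 11 never exceeded 3 counts in a library. PTPRC, the pan-leukocyte antigen CD45, had 2, 0 and 0 counts in knockdown libraries and 0, 3 and 3 in control libraries. Summed over the list the level was 13.2 to 16.5 CPM in knockdown libraries and 15.8 to 18.1 CPM in control libraries, so the groups overlapped. Of the 6 tested markers none was higher and 1 was lower, where 28.0% of all genes tested were higher and 27.9% lower. The median log2 change of the 6 was -0.37, beside 0.0069 over all genes tested. The marker called lower was the actin-bundling protein LCP1, at 0.413 ± 0.204 CPM in knockdown cells and 1.24 ± 0.585 CPM in control cells (log2 change -1.57; edgeR adjusted p = 0.00557, and 0.0802 without control replicate 3). ITGB2 (1.33 CPM in knockdown cells and 1.98 CPM in control cells), CD37 (3.29 CPM in knockdown cells and 4.19 CPM in control cells), CD53 (1.12 CPM in knockdown cells and 1.47 CPM in control cells) and VAV1 (5.95 CPM in knockdown cells and 6.09 CPM in control cells) did not pass, although CD37 did without control replicate 3 (edgeR adjusted p = 0.0354). The part of other cell types in the level of LAPTM5 was not tested.

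Genes whose proteins bind or are handled by the LAPTM family went both ways. Of 14 listed partners 13 were tested: 5 were higher, 5 lower and 3 did not pass, where 28.0% of all genes tested were higher and 27.9% lower; the median log2 change was -0.05 beside 0.0069 over all genes tested. The largest changes among the 13 were in the leucine transporter that LAPTM4B brings to lysosomes. Its light chain SLC7A5 was at 273, 277 and 267 FPKM in knockdown libraries, against 80.9, 77.8 and 85.4 FPKM in control libraries (log2 change 1.68, SE 0.04; edgeR adjusted p = 2.65e-23). Its heavy chain SLC3A2 was at 68.6, 69.9 and 71.2 FPKM in knockdown libraries, against 22.3, 20.7 and 21.8 FPKM in control libraries (log2 change 1.63, SE 0.04; edgeR adjusted p = 5.95e-23). Messenger RNA of both chains thus rose by similar amounts while that of LAPTM4B fell, and a link between these changes was not tested. MCOLN1, a lysosomal calcium channel that binds the family, was at 32.2 ± 1.22 CPM in knockdown cells and 22.5 ± 0.659 CPM in control cells (log2 change 0.52; edgeR adjusted p = 1.12e-06).

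Receptor-sorting partners of LAPTM4B had log2 changes between -0.25 and 0.13. EGFR was at 879 ± 4.73 CPM in knockdown cells and 925 ± 10.9 CPM in control cells (log2 change -0.07; edgeR adjusted p = 0.0453), and its FPKM values overlapped between the groups. That call was lost in 11 of 13 alternatives, and it was lost when any library other than control replicate 3 was left out (adjusted p 0.059 to 0.149). PIP5K1C, a phosphoinositide kinase that binds LAPTM4B, was at 56.0 ± 3.08 CPM in knockdown cells and 51.1 ± 1.04 CPM in control cells (log2 change 0.13; edgeR adjusted p = 0.0473), a call lost in 10 of 13 alternatives, also when any library other than knockdown replicate 1 was left out (adjusted p 0.0881 to 0.219). HGS, the ESCRT subunit that gathers ubiquitinated receptors, was lower, at 144 ± 1.54 CPM in knockdown cells and 172 ± 9.91 CPM in control cells (log2 change -0.25; edgeR adjusted p = 1.69e-05). The exocyst subunit EXOC2 (51.0 CPM in knockdown cells and 54.9 CPM in control cells) and the autophagy inhibitor RUBCN (15.0 CPM in knockdown cells and 15.5 CPM in control cells) did not pass and overlapped between groups.

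Partners known for LAPTM5 and LAPTM4A also divided. The ubiquitin ligase NEDD4, which sorts LAPTM5 to lysosomes, was higher, at 63.3 ± 4.85 CPM in knockdown cells and 50.4 ± 3.47 CPM in control cells (log2 change 0.33; edgeR adjusted p = 5.47e-05). GGA3, the Golgi adaptor that binds LAPTM5, was lower, at 39.0 ± 1.30 CPM in knockdown cells and 50.6 ± 1.11 CPM in control cells (log2 change -0.37; edgeR adjusted p = 4.38e-06). The ligase ITCH, which degrades LAPTM5, was at 50.9 ± 2.85 CPM in knockdown cells and 55.9 ± 0.912 CPM in control cells (log2 change -0.13; edgeR adjusted p = 0.0437), a call lost in 10 of 13 alternatives; without knockdown replicate 1 or 2 or control replicate 1 or 2 the adjusted p was 0.067 to 0.203. A4GALT, the Gb3 synthase that LAPTM4A supports, was lower, at 10.1 ± 0.585 CPM in knockdown cells and 18.2 ± 1.40 CPM in control cells (log2 change -0.85; edgeR adjusted p = 1.15e-07). The cation transporter SLC22A2, which LAPTM4A sorts, was at 5.99 ± 1.17 CPM in knockdown cells and 5.70 ± 0.473 CPM in control cells and did not pass. CD247, the T-cell receptor chain that LAPTM5 lowers, was too scarce to test, with 2, 0 and 0 counts in knockdown libraries and 3, 0 and 0 in control libraries.

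**Figure D4:**
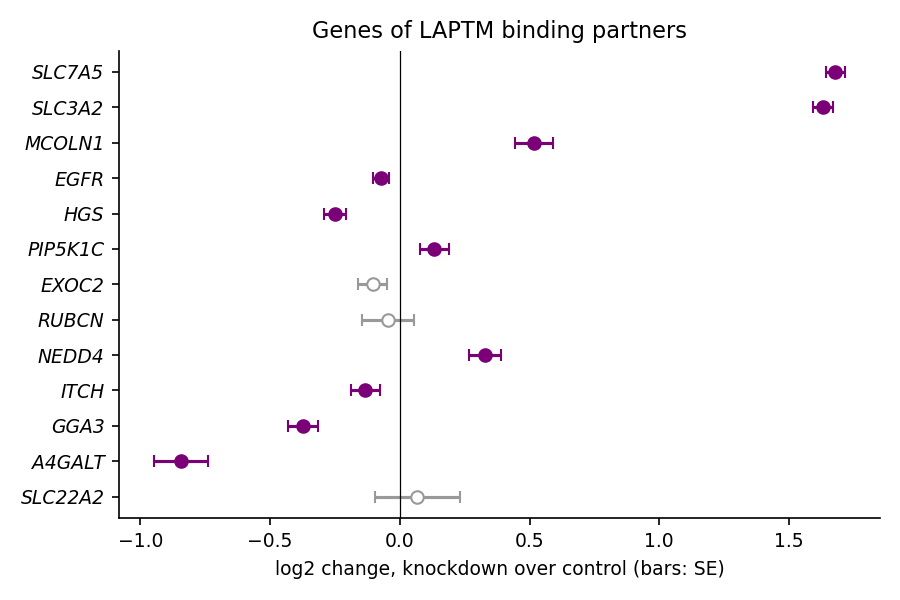
Log2 change, knockdown over control (horizontal axis), of the 13 tested genes of LAPTM binding partners; bars are SE, filled points have an edgeR adjusted p under 0.05 and open grey points do not. SLC7A5 (1.68) and SLC3A2 (1.63) stand far to the right, A4GALT (-0.85) is the lowest, and EGFR, PIP5K1C and ITCH lie within 0.13 of 0.

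Because LAPTM4A serves Gb3 synthesis and LAPTM4B binds ceramide, the glycosphingolipid and ceramide genes were listed. Of 30 genes 27 were tested: 10 were higher, 12 lower and 5 did not pass, where 28.0% of all genes tested were higher and 27.9% lower; the median log2 change was 0.02. UGCG, which makes glucosylceramide, was lower, at 30.4 ± 1.87 CPM in knockdown cells and 53.5 ± 0.843 CPM in control cells (log2 change -0.81; edgeR adjusted p = 1.51e-11). The lactosylceramide synthase B4GALT6 was lower, at 6.97 ± 0.936 CPM in knockdown cells and 16.6 ± 1.24 CPM in control cells (log2 change -1.25; edgeR adjusted p = 1.23e-09). The acid sphingomyelinase SMPD1 was higher, at 49.4 ± 2.14 CPM in knockdown cells and 29.7 ± 1.58 CPM in control cells (log2 change 0.73; edgeR adjusted p = 2.57e-10), and SGPL1, which cleaves sphingosine phosphate, was at 74.6 ± 1.78 CPM in knockdown cells and 50.8 ± 1.79 CPM in control cells (log2 change 0.55; edgeR adjusted p = 7.02e-10).

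Other genes on the route to and from Gb3 were named after their values were seen. The other lactosylceramide synthase, B4GALT5, was lower by little, at 154 ± 8.58 CPM in knockdown cells and 171 ± 7.12 CPM in control cells (log2 change -0.15; edgeR adjusted p = 0.00435). The GM3 synthase ST3GAL5, at the branch away from Gb3, was at 8.26 ± 0.582 CPM in knockdown cells and 15.2 ± 0.561 CPM in control cells (log2 change -0.88; edgeR adjusted p = 1.52e-07). GLA, which removes the last sugar of Gb3, was higher, at 98.0 ± 1.53 CPM in knockdown cells and 82.9 ± 2.31 CPM in control cells (log2 change 0.24; edgeR adjusted p = 5.48e-05). TM9SF2, another protein needed for Gb3 synthesis, was at 160 ± 3.27 CPM in knockdown cells and 157 ± 8.09 CPM in control cells and did not pass. The beta-galactosidase GLB1 was lower, at 58.4 ± 4.64 CPM in knockdown cells and 75.9 ± 3.95 CPM in control cells (log2 change -0.38; edgeR adjusted p = 2.62e-06).

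Other membrane proteins of lysosomes, where the family resides, were listed as well. Of 38 genes 35 were tested: 16 were higher, 6 lower and 13 did not pass, where 28.0% of all genes tested were higher and 27.9% lower; the median log2 change was 0.22. LAMP1, a main glycoprotein of the lysosomal membrane, was at 418 ± 7.98 CPM in knockdown cells and 275 ± 13.4 CPM in control cells (log2 change 0.60; edgeR adjusted p = 1.99e-13). OSTM1, the partner of the chloride transporter CLCN7, was at 44.6 ± 1.52 CPM in knockdown cells and 22.3 ± 0.479 CPM in control cells (log2 change 1.00; edgeR adjusted p = 1.15e-12). MFSD1, a lysosomal transporter, was at 64.3 ± 1.53 CPM in knockdown cells and 41.4 ± 1.01 CPM in control cells (log2 change 0.64; edgeR adjusted p = 1.37e-10). The cholesterol exporter NPC1 went the other way, at 171 ± 4.71 CPM in knockdown cells and 464 ± 7.04 CPM in control cells (log2 change -1.45; edgeR adjusted p = 2.71e-22), as did the cation channel TPCN1, at 71.5 ± 1.25 CPM in knockdown cells and 103 ± 7.04 CPM in control cells (log2 change -0.52; edgeR adjusted p = 1.75e-09). Summed over the list the level was 2299 to 2301 CPM in knockdown libraries and 2298 to 2336 CPM in control libraries.

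The NEDD4 family of ubiquitin ligases and its adaptors, which bind the PY motifs that LAPTM proteins carry, were all tested. Of 14 genes 7 were higher, 4 lower and 3 did not pass, where 28.0% of all genes tested were higher and 27.9% lower; the median log2 change was 0.12. Among adaptors the arrestin-like genes were lower: ARRDC3 was at 36.5 ± 1.56 CPM in knockdown cells and 98.7 ± 1.29 CPM in control cells (log2 change -1.43; edgeR adjusted p = 1.45e-18). ARRDC4 was at 13.4 ± 1.74 CPM in knockdown cells and 32.2 ± 1.61 CPM in control cells (log2 change -1.27; edgeR adjusted p = 3.94e-12) and ARRDC1 at 45.0 ± 1.46 CPM in knockdown cells and 68.6 ± 1.95 CPM in control cells (log2 change -0.61; edgeR adjusted p = 2.56e-10). The membrane adaptor NDFIP2 was higher, at 98.5 ± 4.0 CPM in knockdown cells and 73.2 ± 1.86 CPM in control cells (log2 change 0.43; edgeR adjusted p = 1.65e-08). The ligase HECW1 was higher too, at 30.0 ± 1.46 CPM in knockdown cells and 17.1 ± 1.39 CPM in control cells (log2 change 0.81; edgeR adjusted p = 4.35e-09).

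Genes within 1 Mb of each LAPTM gene were called about as often as all genes tested, of which 28.0% were higher and 27.9% lower. Within 1 Mb of LAPTM4B 10 genes were tested, of which 4 were higher, 2 lower and 4 did not pass (median log2 change 0.26). The nearest tested gene on its left, MTDH (metadherin), 44.8 kb away, was higher at 303, 311 and 307 CPM in knockdown libraries, against 233, 247 and 247 CPM in control libraries (log2 change 0.34; edgeR adjusted p = 6.41e-09). The nearest on its right, MATN2, an extracellular matrix matrilin 15.8 kb away, was at 5.13 ± 0.802 CPM in knockdown cells and 4.31 ± 0.314 CPM in control cells and did not pass. Thus LAPTM4B fell between a neighbour that rose and one that did not pass. Further out, POP1 and NIPAL2 were higher (log2 changes 0.26 and 0.49) and RPL30, which overlaps MATN2 and RPL30-AS1 on the map so that reads may have been shared, was lower (log2 change -0.16).

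Around LAPTM4A 10 genes were tested, of which 3 were higher, 2 lower and 5 did not pass (median log2 change 0.08). MATN3, a matrilin 20.0 kb to its left, was at 1.51 ± 0.305 CPM in knockdown cells and 0.884 ± 0.339 CPM in control cells and did not pass (log2 change 0.74; edgeR adjusted p = 0.0851, and 0.04 without control replicate 3). SDC1, a cell-surface proteoglycan 149 kb to its right, was higher, at 121 ± 5.48 CPM in knockdown cells and 108 ± 3.90 CPM in control cells (log2 change 0.16; edgeR adjusted p = 0.00372). PUM2, an RNA-binding repressor, and TTC32 were lower (log2 changes -0.23 and -0.51). HS1BP3 was called higher (log2 change 0.32; edgeR adjusted p = 0.0113) with overlapping groups. That call was lost in 6 of 13 alternatives. These were edgeR without knockdown replicate 2 (adjusted p 0.102) or control replicate 3 (0.0718), DESeq2 (0.0565) and each limma fit (0.116 to 0.201).

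Around LAPTM5 13 genes were tested, of which 3 were higher, 5 lower and 5 did not pass (median log2 change -0.02). The nearest on either side, MATN1-AS1 (3.02 ± 0.391 CPM in knockdown cells and 3.46 ± 0.892 CPM in control cells) and the proteoglycan gene SDC3 (42.5 ± 1.38 CPM in knockdown cells and 43.1 ± 2.52 CPM in control cells), did not pass. COL16A1, a collagen gene 894 kb away, was higher, at 25.8 ± 1.43 CPM in knockdown cells and 10.5 ± 1.34 CPM in control cells (log2 change 1.31; edgeR adjusted p = 1.57e-11). FABP3, a fatty acid binding protein gene 607 kb away, was lower, at 12.9 ± 0.976 CPM in knockdown cells and 27.6 ± 1.01 CPM in control cells (log2 change -1.10; edgeR adjusted p = 3.98e-11), as was TINAGL1 (log2 change -0.72; edgeR adjusted p = 7.61e-11). The genes that passed near LAPTM5 thus lay beyond its nearest tested neighbours.

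**Figure D5:**
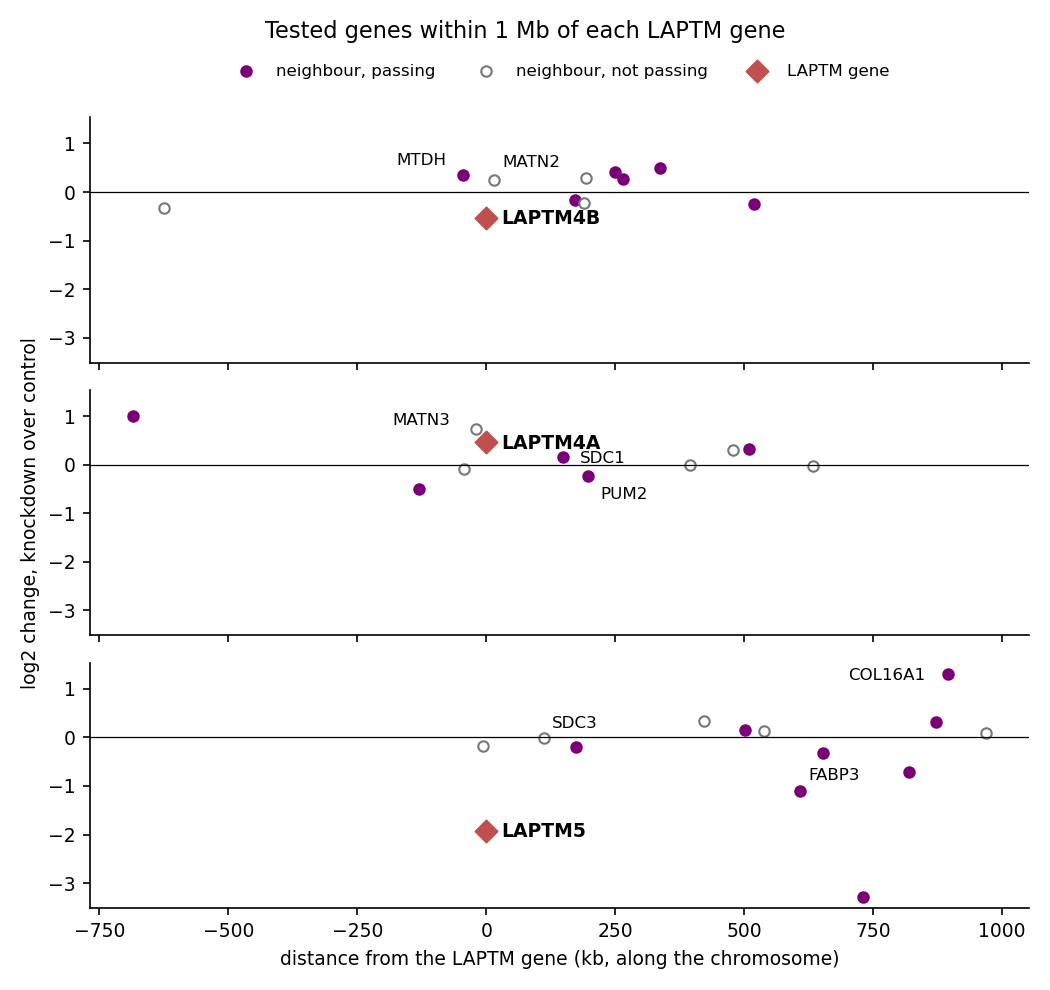
Log2 change, knockdown over control (vertical axis), of genes tested within 1 Mb of LAPTM4B, LAPTM4A and LAPTM5 (top to bottom) against their distance in kb along the chromosome (horizontal axis); filled purple points have an edgeR adjusted p under 0.05, open points do not, and the diamonds are the LAPTM genes. LAPTM4B (-0.53) lies below all its tested neighbours and LAPTM5 (-1.92) lies below the genes nearest to it, while neighbours fall on both sides of 0. A scarce gene without a symbol, 730 kb from LAPTM5 and picked with its value in view, lies lower than LAPTM5 (-3.28). It had 1, 2 and 4 counts in knockdown libraries and 26, 25 and 27 in control libraries.

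The genes whose profile over the 6 libraries was most like that of each LAPTM gene were sought among genes with a mean CPM within 0.5 to 2 times its own, by the root mean square difference (RMS) of centred log2 CPM. With 3 libraries a group this likeness is mostly likeness of the group difference. For LAPTM4B the nearest of 1316 candidates were CTDSP2 (RMS 0.0139), a phosphatase, the ATP citrate lyase ACLY (0.0173), the peptide-amidating enzyme PAM (0.0262) and the replicative helicase subunit MCM7 (0.0280), where the median candidate had 0.285. ACLY, for example, was at 78.7, 82.9 and 84.4 FPKM in knockdown libraries, against 109.9, 111 and 118 FPKM in control libraries. For LAPTM4A the nearest of 3240 were the receptor kinase TYRO3 (0.00821), the peroxisomal transporter ABCD3 (0.0218), the RNA-methylation reader YTHDF1 (0.0308) and the stress-response factor NFE2L2 (0.0313), with a median of 0.231. For LAPTM5 the nearest of 2188 were DES, ENTPD2, PCP2 and MAGEB17, at 0.117 to 0.163 with a median of 0.930. On log2(FPKM + 0.1) the 8 genes named for LAPTM4B and LAPTM4A were named again and none of the 4 for LAPTM5.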

How the data were processed

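Total RNA was extracted with Trizol and made into TruSeq libraries, per the labels' protocols; per the submitters' processing notes, the genome build was hg38. The sources used here give no aligner, counter, annotation release or strand setting. The authors deposited 1 table with a raw read count and an FPKM value per gene and library, and an exonic length per gene. Dividing counts by length and library total returned 100% of the deposited FPKM values within 0.0051.

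The test was edgeR 4.0.16 under R 4.3.3 on raw counts (TMM, filterByExpr, two-sided quasi-likelihood F test) over the whole table, and p-values were adjusted by Benjamini-Hochberg over the 16354 genes tested, with a threshold of 0.05. The SE was |log2 change| over √F. Levels in CPM are TMM-scaled, and levels between genes were compared in FPKM. No replicate columns were alike within sampling noise. The limit of 3 counts covers counting error only. Alternatives were RLE factors, DESeq2 1.42.0, no filter, a replicate block, each library left out, and limma 3.58.1 on log2(FPKM + 0.1) or log2(FPKM + 1), with genes of at least 1 FPKM on average or all.

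Family members and gene lists were chosen with earlier results of these data known. The lists share members, such as A4GALT and MCOLN1, so their tallies are not of separate genes. Named genes were the family, all partners, up to 5 tested members of each other list with the smallest p, and, per family member, the nearest tested gene on either side, 3 more within 1 Mb and the 4 most similar profiles; the text says where a gene outside this rule was picked with its values in view. Some genes that meet it are not reported here. Symbols matched 61757 identifiers.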

Additional observations from a re-analysis of the deposited data

How the results depend on the processing

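LAPTM4B kept its direction and its call in 13 alternatives (log2 change -0.56 to -0.46; -32% to -27.3% in level; largest adjusted p 1.87e-04), as did LAPTM4A (0.41 to 0.52; 3.67e-04) in 13 and LAPTM5 (-2.04 to -1.52; 0.00624) in 11, since its FPKM is under the limma filter. Replicate numbers did not pair libraries (correlations of deviations 0.0231, -0.0496 and -0.0445; 1 of 3 knockdown libraries best matched the control of its number). With the replicate number as a block, the members had log2 changes of -0.53, 0.46 and -1.92 and 4441 genes were higher and 4408 lower. Limma on log2(FPKM + 0.1) called 4496 higher and 2915 lower, and 2925 lower with a pseudocount of 1, beside 4584 and 4559 with edgeR; without a filter it called 4293 higher and 3142 lower.

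Of 14 partners, 3 in place of 5 were lower with edgeR without a filter, with the block and under each limma fit, and 3 to 5 without single libraries. Limma with either pseudocount and the filter called 7 in place of 12 glycosphingolipid genes lower and 1 in place of 2 hepatocyte markers lower; each limma fit called 0 leukocyte markers lower. DESeq2 and edgeR without a filter called 1 hepatocyte marker higher. Within 500 kb, 5 neighbours were higher and 4 lower, in place of 10 and 9. The LAPTM4B share of 43.1% in knockdown cells and 59.7% in control cells became 60.9% and 75.2% from CPM, 46.5% and 62.9% with the longest transcripts, and 50% and 66.1% with the second longest for LAPTM4B.

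Genes that changed sign were not called in either setting. RUBCN reached 0.01, 0.00 and 0.01, VAV1 0.02, 0.01 and 0.02 and SDC3 0.04, 0.03 and 0.04 in the limma fits with pseudocount 0.1, with 1 and without a filter. Without single libraries RUBCN ranged from -0.10 to 0.02, VAV1 from -0.10 to 0.09, SDC3 from -0.07 to 0.01, SLC22A2 from -0.10 to 0.17 and MATN1-AS1 from -0.35 to 0.01. Of 821 values for 65 other named genes, 761 kept direction and call. The causes of these shifts were not tested. Depth limits LAPTM5 most, with 10 to 14 counts in knockdown libraries.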

Other observations

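The 3 LAPTM genes share a kind of neighbourhood, chosen for description after the values were seen: each has a matrilin gene and a syndecan gene on the same chromosome nearby. Matrilins are proteins of the extracellular matrix, and syndecans are cell-surface proteoglycans. The matrilin genes lie closest, MATN2 at 15.8 kb from LAPTM4B, MATN3 at 20.0 kb from LAPTM4A and MATN1 at 8.88 kb from LAPTM5. MATN2 and MATN3 did not pass the test, although MATN3 did without control replicate 3 (edgeR adjusted p = 0.04). MATN1 was too scarce to test, with 1 to 11 counts in knockdown libraries and 4 to 8 in control libraries.

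The syndecans were higher or did not pass. SDC2, 1163 kb from LAPTM4B, was at 6.96 ± 0.677 CPM in knockdown cells and 4.40 ± 0.767 CPM in control cells (log2 change 0.66; edgeR adjusted p = 0.00142), opposite in direction to LAPTM4B. SDC1, beside LAPTM4A, was higher by a log2 change of 0.16, and SDC3, beside LAPTM5, had -0.02 and did not pass. PUM2, an RNA-binding repressor beside LAPTM4A, was at 147 ± 5.24 CPM in knockdown cells and 173 ± 1.31 CPM in control cells (log2 change -0.23; edgeR adjusted p = 1.64e-05), opposite in direction to LAPTM4A.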
